A study of Mus musculus with 20 samples.

Results

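Lipoprotein lipase, the proteins that fold, carry and inhibit it, and a related lipase of the liver were followed in the livers of obese mice that breathed fine particles, drank metformin, or both. The gene set was a list of names grouped by function: Angptl4, Angptl6, Angptl8, Lpl, Lipc, Lmf1 and Gpihbp1, which makes 7 genes. It and the other gene lists below were chosen with earlier results of these data known. Shares of their genes beside those of all genes are therefore descriptions. Of these 6 had a probe set assigned among the 19505 genes on the array, 1 each, and all 6 passed the filter on dim genes that left 11844 genes for testing. Lipc, which encodes hepatic lipase, had no probe set assigned and was not analysed here.

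Liver RNA came from 20 male mice of the ob/ob strain, obese for want of leptin, with 1 array per mouse and 5 mice per group. The groups were filtered air, metformin in the drinking water at a dose set by body weight, PM2.5 (airborne particles of the fine size class) breathed in an exposure chamber, where each day's stay was 6 hours, and PM2.5 with metformin, called the combined group here. Treatment lasted 2 weeks in all groups. Leptin deficiency is shared by every group, so no lean mouse was compared, and the labels give neither age nor genetic background. The metformin label names no air, and chamber hours are stated only for PM2.5, so particles and chamber stay cannot be told apart. Mice are numbered within a group in deposit order, which pairs no mice. Nothing in the labels gives a batch, cage or time of day, so a p-value measures the spread between these mice and no more.

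Lipoprotein lipase, encoded by Lpl, sits on the wall of capillaries and splits the triglyceride of chylomicrons and very low density lipoproteins, so that muscle and fat can take up fatty acids. Lmf1 encodes a chaperone of the endoplasmic reticulum that the lipase needs to fold, and Gpihbp1 encodes the endothelial protein that carries it across the capillary wall. The liver adds secreted regulators: ANGPTL4, an inhibitor of the lipase that is known to be induced by fasting, fatty acids and glucocorticoids, and ANGPTL8, which is induced by feeding and insulin. ANGPTL6 is a secreted protein of the same family with a described role in energy use.

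Levels are the deposited log2 signals, on which a step of 1 is a doubling, and differences are log2 differences ± standard error from limma. The words rose and fell are kept for adjusted p under 0.05 (Benjamini-Hochberg, over the 11844 tested genes). Negative-control probe sets had a mean median of 4.49 and a mean 95th percentile of 8.36. The arrays of a group correlated at 0.972 to 0.994. Negative controls had array medians of 4.36 to 4.43 in filtered air, 4.34 to 4.52 with PM2.5, 4.45 to 4.54 with metformin and 4.44 to 4.79 in the combined group, so that every array of mice given metformin lay above every filtered-air array. The tissue label was met by its markers: 11 of 11 measured hepatocyte genes lay above that 95th percentile in every mouse. In bulk tissue, fewer cells of a type and less RNA per cell cannot be told apart.

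**Figure D1:**
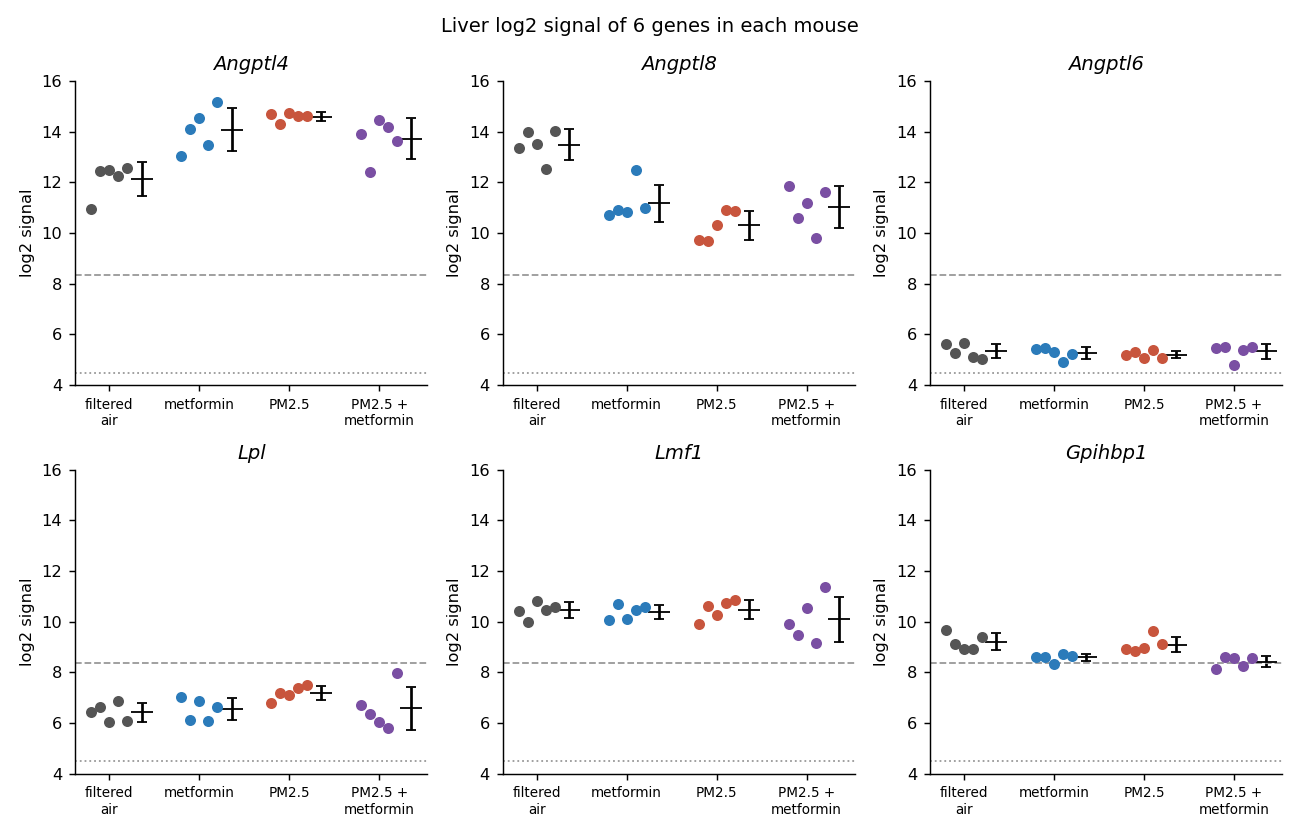
Deposited log2 signal (vertical axis) of the 6 measured genes in each mouse (points) by group, with the group mean ± SD (black bars), n = 5 per group. The dashed line marks the negative controls' mean 95th percentile (8.36) and the dotted line their mean median (4.49). Angptl8 is highest in filtered air (13.49), Angptl4 lowest there (12.13), and Gpihbp1 is lower in both metformin groups (8.59 and 8.42).

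The genes spanned the range of the array. Among all gene means Angptl4 stood at percentile 95.3, Angptl8 at 89.2, Lmf1 at 84.5, Gpihbp1 at 76.1, Lpl at 62.9 and Angptl6 at 52.8. Angptl4, Angptl8 and Lmf1 lay above the 95th percentile of the negative controls in 20 of 20 mice, Gpihbp1 in 16, and Lpl and Angptl6 in 0. Levels of different genes on an array depend on their probes, so these positions say how far each signal lay from background and do not rank the genes. Over the 4 groups together, limma's F-test passed for 3 of the 6 genes, beside 32.1% of all tested genes. They were Angptl8 (adjusted p = 6.89e-05), Angptl4 (adjusted p = 0.000483) and Gpihbp1 (adjusted p = 0.00233), while Lpl had 0.141, Lmf1 0.652 and Angptl6 0.869.

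Angptl4, the inhibitor, was lowest in filtered air. Filtered-air mice 1 to 5 read 10.93, 12.44, 12.47, 12.24 and 12.58. Metformin mice read 13.06, 14.11, 14.55, 13.48 and 15.18. All 5 metformin mice lay above all 5 filtered-air mice. PM2.5 mice read 14.70, 14.30, 14.74, 14.60 and 14.61, again all above filtered air and with the smallest spread of the 4 groups (SD 0.17). Mice of the combined group read 13.91, 12.41, 14.48, 14.20 and 13.64, of which mouse 2 lay within the filtered-air range and the other 4 above it. How many of all tested genes separate groups without overlap was not counted.

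Against filtered air Angptl4 rose by 2.46 ± 0.38 with PM2.5 (5.49-fold, limma adjusted p = 0.00138). With metformin alone it rose by 1.94 ± 0.38 (3.85-fold, adjusted p = 0.00708), and the combined group by 1.60 ± 0.38 (3.02-fold, adjusted p = 0.00275). The 3 comparisons share the filtered-air mice. From high to low the means ran PM2.5 (14.59 ± 0.17 SD, n = 5), metformin (14.08 ± 0.84 SD), combined (13.73 ± 0.80 SD) and filtered air (12.13 ± 0.68 SD). The treated groups did not separate from their neighbours in this order. PM2.5 minus metformin was 0.51 (95% interval -0.28 to 1.30, adjusted p = 0.555), and combined minus metformin was -0.35 (interval -1.14 to 0.44, adjusted p = 0.580). Between the combined group and PM2.5 the difference was -0.86 (interval -1.65 to -0.07, adjusted p = 0.147).

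Angptl8, the feeding-induced regulator, was highest in filtered air and lowest with PM2.5, the groups in which Angptl4 was lowest and highest. Its promoter is shown because the gene had the largest difference of the set, and because binding sites of the regulators described further on could be looked for in it. RefSeq's table gives the 250 bases upstream of its start at chr9:21835260-21835509 (GRCm38.p6, plus strand), printed 5′ to 3′ in lower case with no capitals, since no searched motif matched.
Angptl8: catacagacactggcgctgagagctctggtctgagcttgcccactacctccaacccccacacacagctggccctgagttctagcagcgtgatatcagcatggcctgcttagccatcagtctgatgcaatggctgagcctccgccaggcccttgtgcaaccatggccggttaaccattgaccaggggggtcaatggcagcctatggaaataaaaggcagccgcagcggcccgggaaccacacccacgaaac
The motifs were searched on both strands: the E-box CACGTG, the PPAR element DR1 (a repeat of AGGTCA with 1 base between), the glucocorticoid receptor site AGAACA (a single arm of the full site) and the sterol element TCACNCCAC. Among 32851 promoter windows of the same length they occurred in 6.02%, 0.0335%, 16.1% and 1.05%. None occurred in this window, nor in the windows of Angptl6, Lmf1 and Lipc, so that 4 of the 7 genes were searched. This says only that these letters are not in these windows.

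Filtered-air mice 1 to 5 read 13.36, 13.98, 13.52, 12.53 and 14.04 for Angptl8. Metformin mice read 10.72, 10.92, 10.83, 12.48 and 10.98. The metformin group thus held 4 mice close together and mouse 4 just below the lowest filtered-air mouse. PM2.5 mice read 9.73, 9.69, 10.32, 10.90 and 10.85, and mice of the combined group read 11.86, 10.58, 11.20, 9.80 and 11.62. No treated mouse reached the filtered-air range, and the 3 treated groups overlapped one another. The share of all tested genes that separate in this way was not counted.

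Angptl8 fell in all 3 treated groups, with a difference from filtered air of -3.19 ± 0.39 with PM2.5 (9.13-fold lower, limma adjusted p = 0.000125). The difference was -2.30 ± 0.39 with metformin (4.93-fold lower, adjusted p = 0.00207) and -2.48 ± 0.39 in the combined group (5.56-fold lower, adjusted p = 9.36e-05), in 5 of 5 mice each time. The means ran from filtered air (13.49 ± 0.61 SD, n = 5) through metformin (11.18 ± 0.73 SD) and the combined group (11.01 ± 0.83 SD) to PM2.5 (10.30 ± 0.58 SD). Metformin and the combined group differed by -0.17 (95% interval -0.98 to 0.63, adjusted p = 0.805). Combined minus PM2.5 was 0.71 (interval -0.09 to 1.52, adjusted p = 0.245), and PM2.5 minus metformin was -0.89 (interval -1.69 to -0.08, adjusted p = 0.264). A neighbouring gene, Dock6, overlaps Angptl8 in the RefSeq annotation. It had a mean level of 4.11, under the negative-control median, and passed in none of these comparisons (adjusted p 0.482 to 0.946).

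**Figure D2:**
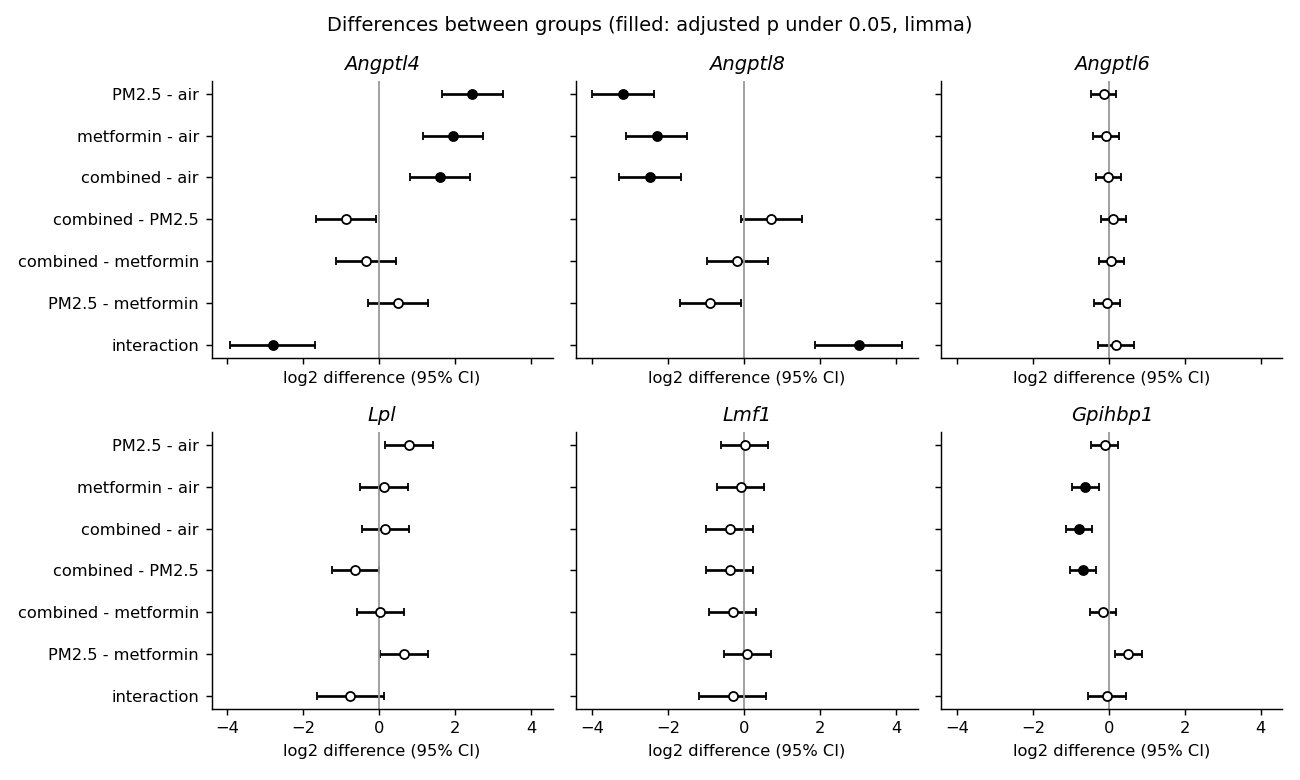
Log2 difference with 95% interval (horizontal axis) of each measured gene in the 6 comparisons between groups and the interaction, from limma, n = 5 mice per group, with filled points where the adjusted p was under 0.05. Against filtered air Angptl4 lies above 0 in all 3 treated groups (2.46, 1.94 and 1.60) and Angptl8 below 0 (-3.19, -2.30 and -2.48), while Gpihbp1 lies below 0 with metformin (-0.62) and in the combined group (-0.79).

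With PM2.5, 2 of the 6 genes passed, 1 higher and 1 lower, beside 5.17% of all tested genes (2.67% higher, 2.5% lower). With metformin 3 passed, 1 higher and 2 lower, beside 3.15% (1.26% higher, 1.89% lower). In the combined group 3 passed, 1 higher and 2 lower, beside 34.9% (18.7% higher, 16.2% lower), a background so high that a share of 3 in 6 says little about the set. Combined against PM2.5 called 1 gene, Gpihbp1, which was lower, beside 11.7% (6.95% higher, 4.73% lower). Combined against metformin called 0, beside 16.3% (9.69% higher, 6.63% lower, with 3662 genes at an unadjusted p under 0.05), and PM2.5 against metformin called 0, beside 1.59% (0.946% higher, 0.642% lower, with 1844 genes unadjusted).

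PM2.5 and metformin did not add on the log2 scale for Angptl4 and Angptl8. The interaction is the effect of metformin in mice with PM2.5 less its effect in mice without. For Angptl4 metformin made a difference of 1.94 without PM2.5 and of -0.86 under it, an interaction of -2.80 ± 0.54 (limma adjusted p = 0.0300). For Angptl8 the differences were -2.30 and 0.71, an interaction of 3.02 ± 0.55 (adjusted p = 0.0224). These were 2 of the 6 genes, beside 0.186% of all tested genes (22 of 11844, 0.160% positive and 0.0253% negative), and they ranked 12 and 9 by p. The set was chosen with earlier results of these data known, so this share is a description. Interactions of the other 4 genes did not pass: Lpl -0.76 (95% interval -1.64 to 0.12, adjusted p = 0.468), Gpihbp1 -0.06 (interval -0.55 to 0.44, adjusted p = 0.952), Lmf1 and Angptl6. The Angptl4 call was lost without filtered-air mouse 5, metformin mouse 2, 3 or 5, or PM2.5 mouse 1 or 2, at adjusted p up to 0.0797 and an interaction of -2.92 to -2.53. Angptl8's was lost without filtered-air mouse 5, metformin mouse 2 or 3, or PM2.5 mouse 1 or 2, at adjusted p up to 0.0726 and an interaction of 2.86 to 2.95.

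**Figure D3:**
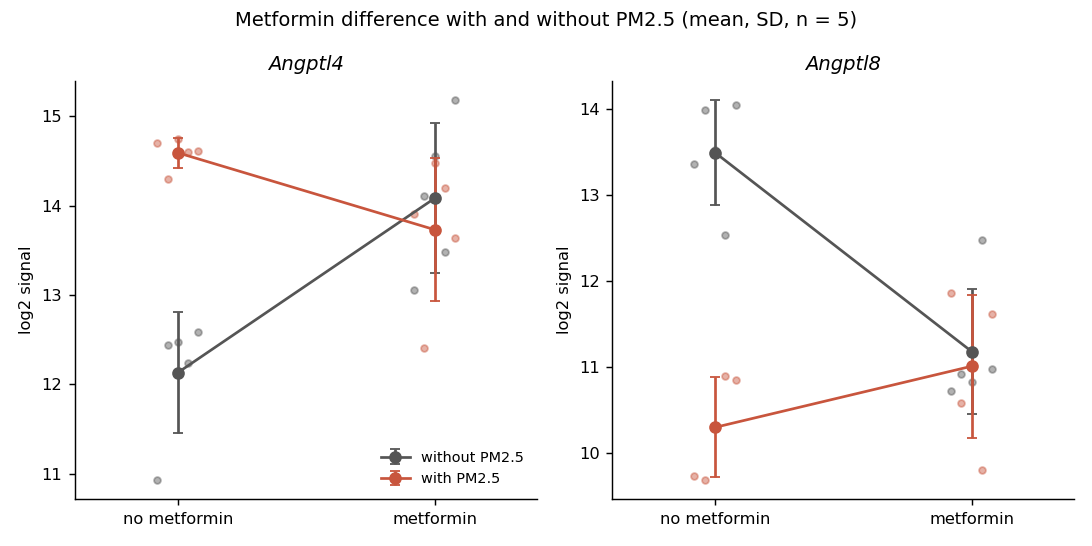
Log2 signal (vertical axis) of Angptl4 and Angptl8 without and with metformin (horizontal axis), in mice without PM2.5 (grey) and with it (red). Large points and bars are group means ± SD, n = 5, and small points are mice. The lines slope in opposite directions for both genes: Angptl4 differs by 1.94 with metformin in mice without PM2.5 and by -0.86 in mice with it, Angptl8 by -2.30 and 0.71.

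Angptl6, the other secreted family member, showed no difference that could be told from background. All 20 mice read between 4.79 and 5.66, below the 95th percentile of the negative controls. Group means were 5.34 ± 0.28 (SD, n = 5) in filtered air, 5.27 ± 0.23 with metformin, 5.20 ± 0.14 with PM2.5 and 5.33 ± 0.30 in the combined group. PM2.5 minus filtered air was -0.14 (95% interval -0.47 to 0.20). At this signal an absence of change cannot be read. Shfl, which overlaps Angptl6 in the annotation, had a mean level of 10.06 and passed in none of the comparisons.

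Lpl, the lipase itself, was dim in whole liver and highest with PM2.5. Filtered-air mice 1 to 5 read 6.45, 6.65, 6.05, 6.87 and 6.07, and metformin mice 7.04, 6.14, 6.87, 6.07 and 6.63. PM2.5 mice read 6.80, 7.18, 7.12, 7.40 and 7.52, of which 4 lay above every filtered-air mouse. The combined group read 6.71, 6.37, 6.03, 5.82 and 7.96, and mouse 5 held the highest Lpl level of all 20 mice. The PM2.5 difference of 0.78 ± 0.30 (95% interval 0.16 to 1.41) did not pass over all genes (limma adjusted p = 0.122). Without combined mouse 5 the same difference of 0.78 had an adjusted p of 0.0353. Combined minus PM2.5 was -0.63 (interval -1.25 to -0.01, adjusted p = 0.180), and without mouse 5 it was -0.97 (adjusted p = 0.00567). Metformin minus filtered air was 0.13 (adjusted p = 0.858) and combined minus filtered air 0.16 (adjusted p = 0.721).

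Macrophage and endothelial markers differed between mice beside Lpl. The mean log2 level of 13 measured Kupffer cell and macrophage markers ran from 7.31 to 10.12 in the combined group, from 9.45 to 10.24 with PM2.5, from 8.74 to 9.15 with metformin and from 9.06 to 9.88 in filtered air. Combined mouse 5, with the highest Lpl level, had the 10.12, and mouse 2 the 7.31. For 13 endothelial markers the ranges were, in the same order of groups, 8.22 to 9.11, 9.10 to 9.43, 8.54 to 8.82 and 8.81 to 9.10. Of the 13 macrophage markers 0 passed with PM2.5 and 0 with metformin. With PM2.5 all 13 differences lay above 0 (median 0.45). With metformin 2 of the 13 did (median -0.51), where the Lpl difference was 0.13. In the combined group 9 fell against PM2.5, beside 4.73% of all tested genes. Against filtered air 7 fell and 1 rose, beside 16.2% of all tested genes lower and 18.7% higher. Adipocyte and muscle tissue, the main sources of the lipase elsewhere in the body, left little signal here. Adipoq (2.96), Plin1 (3.06) and Lep (2.51), which define adipocytes, were under the negative-control median on average, and Fabp4 (10.07) was the 1 of 7 measured adipocyte markers whose mean lay above the 95th percentile. Of 10 muscle markers 0 lay above it in any mouse.

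**Figure D4:**
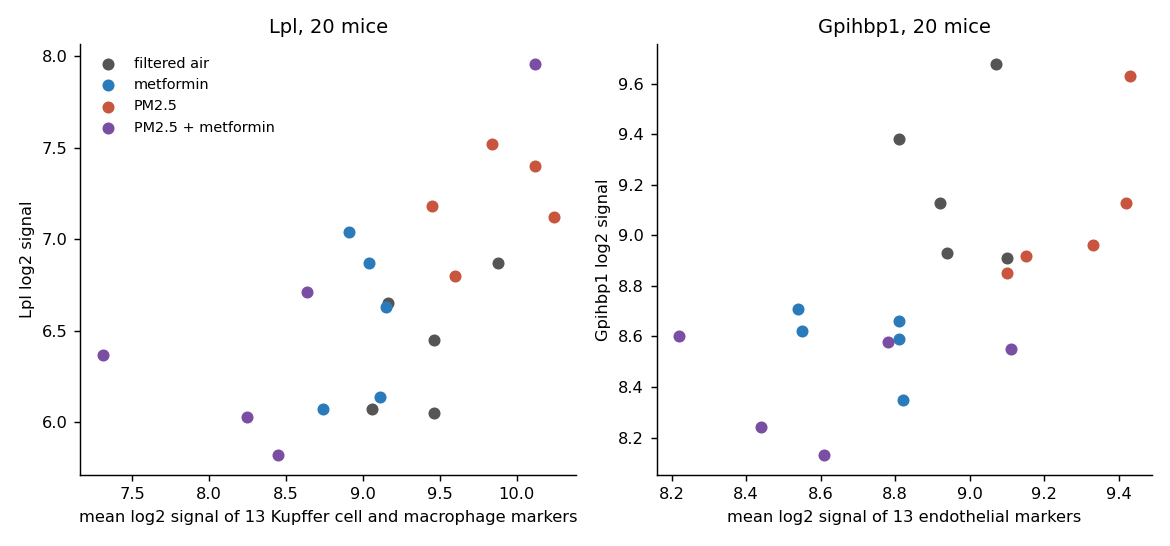
Left, Lpl log2 signal against the mean log2 signal of 13 macrophage markers, and right, Gpihbp1 log2 signal against that of 13 endothelial markers, for 20 mice (points) coloured by group. Combined mouse 5 lies at the upper right for Lpl (7.96 at a macrophage mean of 10.12), and the 10 mice given metformin lie below the other 10 for Gpihbp1.

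Over the 20 mice, deviations of Lpl from its group means correlated with those of the macrophage markers at Pearson's r = 0.66 (permutation p = 0.058, Benjamini-Hochberg adjusted 0.12 over 4 relations) and Spearman's rho = 0.48 (permutation p = 0.046, adjusted 0.11). Leaving out combined mice 5 and 2 gave r = 0.43, and the 15 mice outside the combined group gave r = 0.36. With the endothelial markers r was 0.67 (permutation p = 0.024, adjusted 0.096) and rho 0.49 (permutation p = 0.055, adjusted 0.11), with r = 0.50 without the same mice and 0.58 outside the combined group. None of the 4 relations passed after adjustment. With the marker mean as a covariate, an alternative chosen after seeing the data, the PM2.5 difference of Lpl was 0.51 for macrophages (limma adjusted p = 0.20) and 0.25 for endothelium (adjusted p = 0.61).

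Lmf1, the folding chaperone, did not differ between groups by more than the mice did among themselves. Filtered-air mice 1 to 5 read 10.44, 9.99, 10.82, 10.45 and 10.60, metformin mice 10.05, 10.71, 10.12, 10.46 and 10.57, and PM2.5 mice 9.93, 10.61, 10.27, 10.74 and 10.84. The combined group read 9.90, 9.47, 10.53, 9.17 and 11.39. It held both the lowest and the highest level of all 20 mice, with an SD of 0.89 against 0.28 to 0.38 elsewhere. PM2.5 minus filtered air was 0.02 (95% interval -0.60 to 0.64, limma adjusted p = 0.983), metformin minus filtered air -0.08 (adjusted p = 0.921) and combined minus filtered air -0.37 (interval -0.99 to 0.25, adjusted p = 0.363). Combined mouse 5 decided the last of these and the comparison with PM2.5: without it the differences were -0.69 (adjusted p = 0.0285) and -0.71 (adjusted p = 0.0454).

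Gpihbp1, the endothelial carrier of the lipase, was lower in both groups that drank metformin. Filtered-air mice 1 to 5 read 9.68, 9.13, 8.91, 8.93 and 9.38, and metformin mice 8.59, 8.62, 8.35, 8.71 and 8.66. PM2.5 mice read 8.92, 8.85, 8.96, 9.63 and 9.13, and the combined group 8.13, 8.60, 8.58, 8.24 and 8.55. Every mouse given metformin, 10 in all, lay below every mouse not given it. The share of all tested genes that separate groups without overlap was not counted, here or for Angptl4 and Angptl8. All 10 mice without metformin exceeded the 95th percentile of the negative controls of their array, against 4 of 5 metformin mice and 2 of 5 combined mice, so that the lower levels lie near the limit of what the array separates from background.

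The fall of Gpihbp1 with metformin was -0.62 ± 0.17 (1.54-fold lower, limma adjusted p = 0.0437). In the combined group it was -0.79 ± 0.17 against filtered air (1.72-fold lower, adjusted p = 0.00118) and -0.68 ± 0.17 against PM2.5 (1.60-fold lower, adjusted p = 0.0126). PM2.5 alone made a difference of -0.11 (95% interval -0.46 to 0.24, adjusted p = 0.746), and combined minus metformin was -0.16 (interval -0.51 to 0.18, adjusted p = 0.549). The order of the means was filtered air (9.21 ± 0.33 SD, n = 5), PM2.5 (9.10 ± 0.31 SD), metformin (8.59 ± 0.14 SD) and combined (8.42 ± 0.22 SD). PM2.5 minus metformin, its middle step, was 0.51 (interval 0.17 to 0.86, adjusted p = 0.122). The call with metformin alone was near the threshold and was lost under 15 of 32 alternatives, among them leaving out any metformin mouse or filtered-air mouse 1, 2 or 5. At its weakest among these it was -0.50, without filtered-air mouse 1 (adjusted p = 0.129). The call in the combined group against PM2.5 was lost without combined mice 2 and 4 together (-0.67, adjusted p = 0.0845).

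Endothelial markers were in part lower beside Gpihbp1. With metformin 2 of 13 fell and 0 rose, beside 1.89% of all tested genes lower and 1.26% higher. The 2 were Emcn (endomucin, -0.64 ± 0.15, limma adjusted p = 0.0226) and Stab2 (stabilin-2 of the sinusoids, -0.75 ± 0.19, adjusted p = 0.0364). Both had mean levels below the negative controls' 95th percentile (Emcn 7.87, Stab2 8.15), so they stand near background as Gpihbp1 does. Emcn also fell in the combined group against filtered air (-0.64 ± 0.15, limma adjusted p = 0.00247). Stab2 did not pass there (0.36 ± 0.19, adjusted p = 0.162) and rose against metformin alone (1.11 ± 0.19, adjusted p = 0.00116), unlike Gpihbp1. In the combined group 7 fell against PM2.5, among them Fcgr2b (-1.33 ± 0.24, adjusted p = 0.00220), where 4.73% of all tested genes were called lower. Against filtered air 3 of 13 fell in the combined group, beside 16.2% of all tested genes, a share that says little about endothelial genes. With PM2.5, where Gpihbp1 did not pass, 2 rose, Cd300lg (0.89 ± 0.20, adjusted p = 0.0152) and Kdr (0.54 ± 0.16, adjusted p = 0.0459). Of all tested genes 2.67% were called higher there. Cd300lg had a mean level of 7.8, also below the negative controls' 95th percentile. Within groups the deviations of Gpihbp1 and the endothelial mean correlated at r = 0.17 (permutation p = 0.47, adjusted 0.63) and rho = 0.15 (permutation p = 0.57, adjusted 0.73). With the endothelial mean as a covariate, chosen after seeing the data, the metformin difference of Gpihbp1 was -0.56 (limma adjusted p = 0.144) and that of the combined group against PM2.5 was -0.54 (adjusted p = 0.504). With the negative-control median of each array as a covariate none of the 3 Gpihbp1 calls passed: -0.52 with metformin (limma adjusted p = 0.151), and in the combined group -0.60 against filtered air (adjusted p = 0.0802) and -0.52 against PM2.5 (adjusted p = 0.245).

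Within groups the 6 genes did not vary together in a way that passed. Over 15 pairs of genes, with deviations from group means in 20 mice, the lowest adjusted permutation p was 0.522. Angptl4 and Angptl8, whose group means differed from filtered air in opposite directions, had r = 0.02 (permutation p = 0.954) and rho = -0.01 (permutation p = 0.979) between mice of a group. The strongest pair by unadjusted p was Angptl8 with Lmf1 (r = 0.47, permutation p = 0.0818). Lpl and Lmf1 had r = 0.47 as well (permutation p = 0.204), which turned to -0.24 without combined mice 4 and 5.

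The genes whose log2 level was most like each member over the 20 arrays were found among all tested genes by Pearson's r, as a description, since arrays of a group share their treatment. Nearest to Angptl4 were Txnip, which binds thioredoxin and restrains glucose uptake (r = 0.90, 0.72 between deviations from group means), Arhgef3 (0.87 and 0.82) and St3gal5 (0.85 and 0.73). Nearest to Angptl8 were Mid1ip1, a partner of acetyl-CoA carboxylase (0.95 and 0.84), Aacs, which activates acetoacetate for lipid synthesis (0.93 and 0.79), and Xkr9 (0.91 and 0.82). Lpl was nearest to Slc11a1, a metal transporter of macrophages (0.90 and 0.87), Laptm5, a lysosomal protein of blood cells (0.88 and 0.85), and the receptor kinase Axl (0.87 and 0.84). For Gpihbp1 they were Bloc1s4 (0.87 and 0.73), the endothelial Emcn (0.87 and 0.62) and Tars (0.82 and 0.50). Lmf1 had Cops7a, Tmem129 and Mrpl10 (0.86 each). For Angptl6, near background, the best was Adamts14 at 0.64. Several of these neighbours had mean levels below the negative controls' 95th percentile of 8.36. They were Mid1ip1 (5.76), Aacs (7.6), Slc11a1 (7.32), Laptm5 (7.48), Axl (7.16), Bloc1s4 (5.49), Emcn (7.87), Tmem129 (8.27) and Adamts14 (4.07).

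Targets of insulin, SREBP-1c and ChREBP, which make fat after feeding, fell in part with PM2.5 and for the most part with metformin. Of 20 listed genes, chosen with earlier results of these data known, 17 were tested. With PM2.5 7 fell and 0 rose (median -1.10, against 0.02 over all genes), with metformin 13 fell (median -1.71) and in the combined group 14 fell (median -1.68). In the same order, 2.5%, 1.89% and 16.2% of all tested genes were called lower. Examples with PM2.5 were Aacs (-2.35 ± 0.20, limma adjusted p = 6.31e-07) and Pnpla3 (-3.03 ± 0.43, adjusted p = 0.000785). With metformin Acly, which makes cytosolic acetyl-CoA, fell (-3.41 ± 0.40), as did Fasn, the fatty acid synthase (-3.75 ± 0.45, adjusted p = 8.17e-05 for both). The interaction lay above 0 in 16 of 17 (median 1.61). It passed as a positive value in 5, beside 0.16% of all tested genes: Aacs (2.29 ± 0.28, limma adjusted p = 0.000491), Gpam (1.77 ± 0.32, adjusted p = 0.0224), Fasn (3.32 ± 0.64, adjusted p = 0.0300), Pnpla3 (3.19 ± 0.61, adjusted p = 0.0300) and Acly (2.82 ± 0.57, adjusted p = 0.0375). Of these, Aacs (means 7.09 with metformin, 6.96 with PM2.5 and 7.03 combined) and Pnpla3 (3.65, 5.24 and 3.82) lay below the negative controls' mean 95th percentile of 8.36 in every treated group, so that their interactions cannot be told apart from a signal floor. For PM2.5 against metformin 5 of 17 rose and 0 fell, beside 0.946% of all tested genes higher and 0.642% lower. Among the 5 were Acly and Fasn (1.84 ± 0.40 and 1.85 ± 0.45, limma adjusted p = 0.0250 and 0.0432). In all, 14 of the 17 differences lay above 0 (median 0.93). Mid1ip1 (-1.01 ± 0.42, adjusted p = 0.234), Aacs (-0.13) and Tkfc (-0.14) lay below 0, as did Angptl8 (-0.89), and none of these passed.

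Targets of PPARα and fasting, the group to which Angptl4 belongs by its known induction, passed in few members. Of 17 tested, 3 rose with PM2.5: Cpt1a, the gate of fatty acid entry into mitochondria (1.08 ± 0.23, limma adjusted p = 0.00991), Pdk4, which turns off pyruvate oxidation (1.66 ± 0.41, adjusted p = 0.0211), and Acot1, an acyl-CoA thioesterase (1.78 ± 0.46, adjusted p = 0.0275). With metformin Cpt1a alone rose (1.38 ± 0.23, adjusted p = 0.00190). In the combined group Cpt1a, Fgf21 and Cpt2 rose, with 0 falls in the 3 comparisons. Among all tested genes 2.67% were called higher with PM2.5, 1.26% with metformin and 18.7% in the combined group. Beside the last of these shares, 3 of 17 says little about the targets. Fgf21 had a mean level of 6.13 over all mice and 7.16 in the combined group. Both lay below the upper negative-control level of 8.36 used above. Pdk4 differed from Angptl4 in the group means: 9.39 in filtered air, 8.13 with metformin, 11.05 with PM2.5 and 8.38 in the combined group, so that it fell by 2.66 ± 0.41 in the combined group against PM2.5 (adjusted p = 0.000742). Its means with metformin and in the combined group lay near that level of 8.36. The interaction passed in 0 of the 17 (limma, median -0.52 against 0.01 over all genes, 1545 of all tested genes at an unadjusted p under 0.05).

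Of 20 transcriptional regulators known to act on these genes, 16 were tested. With PM2.5 Creb3l3 (0.66 ± 0.16, limma adjusted p = 0.0198) and Foxo1 (0.80 ± 0.22, adjusted p = 0.0375) rose, and Mlx, the partner of ChREBP, fell (-0.59 ± 0.15, adjusted p = 0.0251). With metformin 3 rose, Creb3l3 (1.03 ± 0.16, adjusted p = 0.000953), Rxra (1.21 ± 0.24) and Ppara (0.94 ± 0.19), and 2 fell, Mlxipl, which encodes ChREBP (-1.12 ± 0.25, adjusted p = 0.0173), and Mlx. In the combined group 6 rose and 4 fell, beside the 34.9% of all genes. The shares of all genes called were 5.17% with PM2.5 and 3.15% with metformin. The interaction passed in 0 of 16, with Creb3l3 at -1.07 ± 0.23 (adjusted p = 0.0508).

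Other genes of lipoprotein triglyceride handling passed mainly in the combined group, whose background was highest. Of 25 tested of 29 listed, 1 rose with PM2.5, Scarb1, the receptor for high density lipoprotein (0.79 ± 0.19, limma adjusted p = 0.0189), and 1 rose with metformin, Apoa5, an activator of triglyceride breakdown in plasma (0.54 ± 0.14, adjusted p = 0.0317). Among all tested genes 2.67% and 1.26% were called higher in these 2 comparisons. In the combined group 18.7% were called higher and 16.2% lower. In the combined group 8 rose and 0 fell: Scarb1 (1.28 ± 0.19, adjusted p = 5.46e-05), the remnant receptor Lrp1 (1.66 ± 0.24, adjusted p = 5.57e-05), the convertases Pcsk6 (1.23 ± 0.20, adjusted p = 0.000109) and Pcsk5 (0.88 ± 0.16, adjusted p = 0.000271), and 4 others. Lrp1 also rose against PM2.5 (1.28 ± 0.24, adjusted p = 0.00279) and against metformin (1.09 ± 0.24, adjusted p = 0.00552). Among other angiopoietin-like and lipase family genes 7 of 14 were tested, and 0 passed with PM2.5 or metformin (limma, 2666 and 2198 of all tested genes at an unadjusted p under 0.05). In the combined group Lmf2, a relative of Lmf1, rose (0.89 ± 0.22, adjusted p = 0.00313) and Angpt1, a growth factor of blood vessels, fell (-1.09 ± 0.28, adjusted p = 0.00499).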

How the data were processed

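Liver RNA of 20 mice was measured on 20 single-channel arrays. The values the authors deposited are log2 signals of probe sets, which came from Affymetrix Expression Console per the submitters' processing notes. Its version, the summary method and the genome build are not given in the sources used here. Since the probe set identifiers belong to a different array type from the one in the series text, genes came from the annotation of those identifiers. Of 28846 probe sets, 6640 were controls and 19572 of the rest had 1 gene. The brightest probe set stood for a gene with several, and dim genes, with a mean not above the 40th percentile (log2 4.05), were not tested.

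One limma 3.58.1 model of 4 group means (R 4.3.3, eBayes, prior degrees of freedom 5.68, residual 16) gave two-sided tests, adjusted by Benjamini-Hochberg over 11844 genes. The fit was tested on simulated data. Correlations used within-group permutations (scipy 1.17.1). Arrays give no depth, and their number limits the precision. The members and lists were chosen with earlier results of these data known. Named were all members, up to 4 passing genes per list and comparison, and the 3 genes most like each member. A few lists also name a gene outside that rule, chosen after its values were seen. Alternatives changed the filter, normalization, probe set choice, weights, eBayes options, arrays, background and replicates.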

Additional observations from a re-analysis of the deposited data

Results flagged for a closer look

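A mouse far from the other 4 of its group was looked for in 48 groups of 5, the 6 genes and 6 marker lists in each of 4 groups, and 4 were found. Chance gives about 1 in 20. For Angptl4, filtered-air mouse 1 read 10.93 and the nearest mouse 12.24. Without it Angptl4 still rose with PM2.5 (2.16, limma adjusted p = 0.00696), with metformin (1.64, adjusted p = 0.0239) and in the combined group (1.30, adjusted p = 0.0108). For Angptl8, metformin mouse 4 read 12.48 and the nearest 10.98, and without it the metformin difference was -2.62 (adjusted p = 0.000411) and the interaction 3.34 (adjusted p = 0.00412). For Angptl6, combined mouse 3 read 4.79 and the nearest 5.37, both below the 95th percentile of the negative controls. The mean of the exocrine pancreas markers was 4 in combined mouse 5 and 4.05 in the nearest, all under the negative-control median of 4.49.

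The metformin difference of 2 genes itself differed between mice with and without PM2.5, by the interaction test: Angptl4 by -2.80 and Angptl8 by 3.02. These calls passed under 21 and 26 of 31 alternatives.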

How the results depend on the processing

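Against filtered air, Angptl4 rose and Angptl8 fell in all 3 treated groups under all 32 alternatives. Leaving out each mouse in turn gave 2 to 3 genes called with PM2.5, 2 to 3 with metformin, 3 to 4 in the combined group against filtered air and 1 to 3 against PM2.5, 0 against metformin, 0 for PM2.5 against metformin, 0 to 2 interactions and 3 to 4 by the F-test. Combined against PM2.5 called 0 with the negative-control covariate, without combined mice 2 and 4, and with either marker covariate. The interaction called 1 with trend and robust, without combined mice 2 and 4, and with either marker covariate. The marker covariates were chosen after seeing the data. Called genes with PM2.5 among all tested ran from 1.76% to 6.41% without each mouse and from 2.52% to 11.6% otherwise. The interaction ran from 0.0591% to 2.44% and from 0.0844% to 0.912%. Combined against filtered air reached 8.9% with the negative-control covariate, and combined against PM2.5 0.144% with the endothelial covariate.

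Values that turned sign were all uncalled, and their cause was not tested. Lmf1, PM2.5 against filtered air, was -0.02 with median centring, -0.24 with the macrophage and -0.53 with the endothelial covariate. With the negative-control covariate Lmf1 was 0.30 (metformin against filtered air), 0.37 and 0.22 (combined against filtered air and PM2.5), 0.07 (combined against metformin) and -0.15 (PM2.5 against metformin), Angptl8 0.11 (combined against metformin) and the Gpihbp1 interaction 0.00. Without combined mice 2 and 4 Lmf1 was 0.14, 0.13, 0.22 and 0.21 (interaction), and combined against metformin was 0.37 for Angptl8 and -0.01 for Angptl6. With array weights the latter was -0.04, and Lpl -0.09 (-0.06 with quantile normalization). With the macrophage covariate Lmf1 was 0.16, 0.13, 0.37, -0.40 and 0.21 in metformin and combined against filtered air, combined against PM2.5, PM2.5 against metformin and the interaction, Angptl6 0.04 (combined against filtered air) and Lpl 0.17 (combined against PM2.5). With the endothelial covariate these were 0.37, 0.21, 0.74, -0.90 and 0.37 for Lmf1, 0.02 for Angptl6 and 0.48 for Lpl, with Lpl -0.33 for PM2.5 against metformin and the Gpihbp1 interaction 0.03. Leaving out single mice, signs turned within these ranges: -0.10 to 0.15 (Lmf1) and -0.24 to 0.01 (Gpihbp1) for PM2.5 against filtered air, -0.20 to 0.01 (Lmf1) and -0.15 to 0.02 (Angptl6) for metformin, -0.09 to 0.12 (Angptl6) and -0.19 to 0.35 (Lpl) for the combined group, -0.03 to 0.20 (Angptl6), -0.39 to 0.15 (Angptl8) and -0.32 to 0.22 (Lpl) for combined against metformin, and -0.17 to 0.08 for the Gpihbp1 interaction. Lpl passed with PM2.5 under array weights (0.83, limma adjusted p = 0.0323) and with the compared arrays alone (0.78, adjusted p = 0.0252). Angptl6 had no value under the 60th percentile filter.

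No paired analysis was possible because the labels number no mice across groups. Signals of Lpl and Angptl6 lay near background, which limits what can be seen of them, and Lipc was not analysed here.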
